A study of Mus musculus with 2 samples.

Results

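The potassium channel genes studied here are the 81 mouse protein-coding genes whose symbols read Kcn, a letter and a number, out of 21911 protein-coding genes of GENCODE release M21, the annotation of the build mm10. The letter gives the subfamily, so the set holds pore-forming and silent subunits of several classes and the Kcne auxiliary subunits, but not the large-conductance channel gene Kcnma1. Open chromatin was mapped with DNase-seq, which sequences the ends left where DNase I has cut. The tissue was calf muscle, the gastrocnemius, from female B6CASTF1/J mice aged 2 months, the first generation of a cross between C57BL/6J and CAST/EiJ. No treatment or other allele is named. The design has 1 group of 2 libraries, biological replicates 1 and 2. Their labels name separate biosamples but 1 donor identifier, so whether they come from separate animals is not settled, and differences between them may be partly technical. Nothing in the design sets one condition against another, so every comparison below is between genes within these libraries, and no test was run.

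Potassium channels let potassium ions leave or enter the cell along their gradient, and so set the resting membrane voltage and end the action potential. Voltage-gated channels open on depolarisation, inward rectifiers pass current best near the resting voltage, tandem-pore-domain channels carry leak current, and calcium-activated channels link the voltage to calcium. In skeletal muscle, inward rectifiers help to hold the resting voltage of the fibre and of its transverse tubules, and channels closed by ATP couple excitability to the energy state.

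Replicate 1 held 66984 peaks and replicate 2 held 258342, a ratio of 3.86, and 49160 shared peaks were left where peaks of both overlapped by at least 1 bp. Each peak carries a signal given by the authors, whose scale is not stated. Sequencing depth is unknown. Among marker genes of the tissue, 6 of 6 for muscle fibre, 3 of 4 for endothelium and 3 of 4 for mural cells had promoter peaks in both libraries, where a promoter peak lies within 1 kb of an annotated transcript start. The same was true of 3 of 4 neuron markers, 1 of 4 Schwann cell markers, 0 of 4 macrophage markers and 0 of 4 hepatocyte markers, and 3 of the macrophage markers had one in replicate 2. Over all protein-coding genes the share was 60.2%, so 3 of 4 does not mark a cell type as present. Ranked from the strongest, the strongest promoter peaks of muscle markers had a median place of 3.57% in the replicate 1 list. It was 41.2% for endothelial, 46.9% for mural and 78.6% for neuron markers, and 12.7% for the 1 Schwann cell marker. In bulk tissue a peak found in few cells cannot be told apart from a weak peak in many.

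Under 50% of the potassium channel genes had a promoter peak in each library. This was so at 38 of 81 genes (46.9%), beside 60.2% of all protein-coding genes. Replicate 1 alone gave 40 genes (49.4%, all genes 60.8%). Replicate 2 alone gave 59 genes (72.8%, all genes 71.1%). The channels thus stood below the share of all genes in the library with fewer peaks and near it in the library with more. The difference between the libraries lay in 21 genes with a promoter peak in replicate 2 only, which is 25.9% of the channels against 10.9% of all genes. Replicate 1 alone had one at 2 genes, Kcnh7 and Kcnj15 (2.47%, all genes 0.644%). Neither library had one at the remaining 20 genes (24.7%, all genes 28.3%). At 36 of the 38 genes the promoter peaks of the libraries overlapped (44.4% of channels, all genes 59.6%). The exceptions were Kcnh5 and Kcnk12. At Kcnk12 the peaks lay on opposite sides of the start, and the replicate 1 signal was 0.19.

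**Figure D1:**
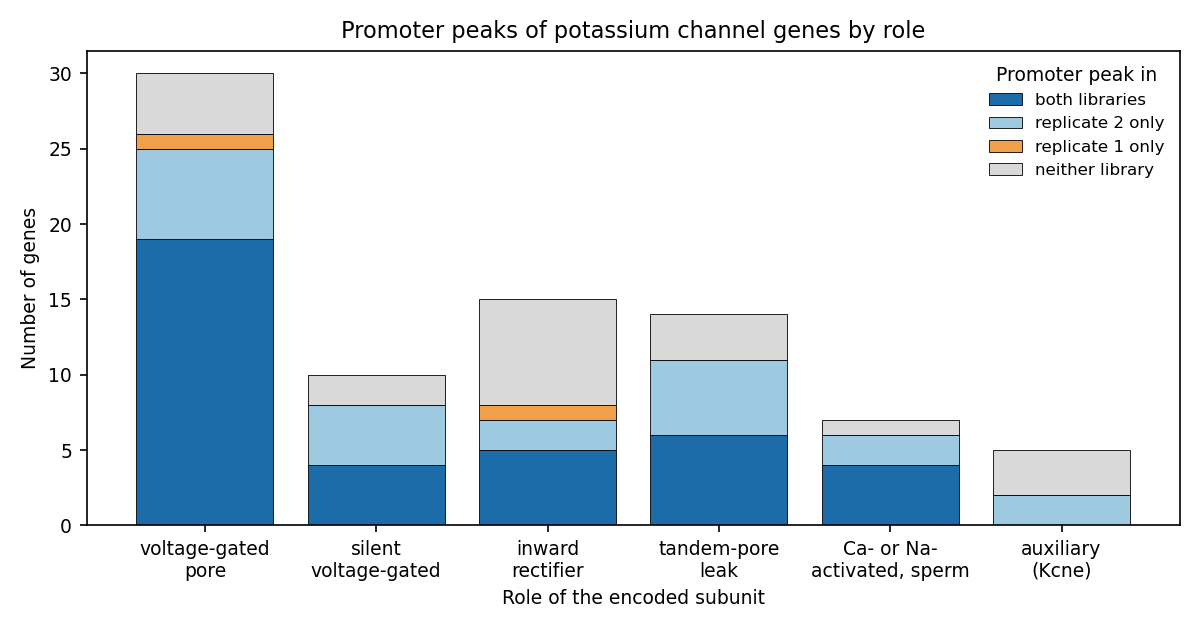
Stacked bars give the number of genes in each role group, split by the library in which a promoter peak was found. Voltage-gated pore genes had peaks in both libraries at 19 of 30, inward rectifiers at 5 of 15, and the auxiliary Kcne genes at 0 of 5. Over all protein-coding genes the share was 60.2%. All Kcne promoters are poor in CpG (ratio below 0.48), a class with a share of 24.9% over all genes.

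Promoter peaks at the channels mostly had lower signals than those of other genes. Their medians were not below those of the lists as a whole, which were 0.738 and 0.364 over single peaks. These measures are unlike, since the channel values are the strongest promoter peak of each gene called in both libraries. Over the 38 genes the strongest promoter peak had a median signal of 0.869 in replicate 1 and 1.49 in replicate 2, against 2.48 and 5.37 over all 13187 genes called the same way. Ranked from the strongest, the median place was at 41.9% of the replicate 1 list and 12% of the replicate 2 list, beside 12% and 2.98% for all called genes. The strongest peak was taken over all starts of a gene, with medians of 2 starts for these channels and 5 for all called genes. The part of this in the lower signals was not tested. The strongest promoter peak fell in the top 10% of both lists at 3 channels (3.7%, all genes 26.5%), Kcnj2 and Kcnj11 among them. It fell in the top 50% of both at 24 (29.6%, all genes 53.5%). Across the 38 genes the libraries ordered the signals alike, with a Spearman rho of 0.902 and a Pearson r of 0.919 on log2 values. These correlations are across genes of the same tissue, and genes are not replicates. Over all called genes the rho was 0.964.

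**Figure D2:**
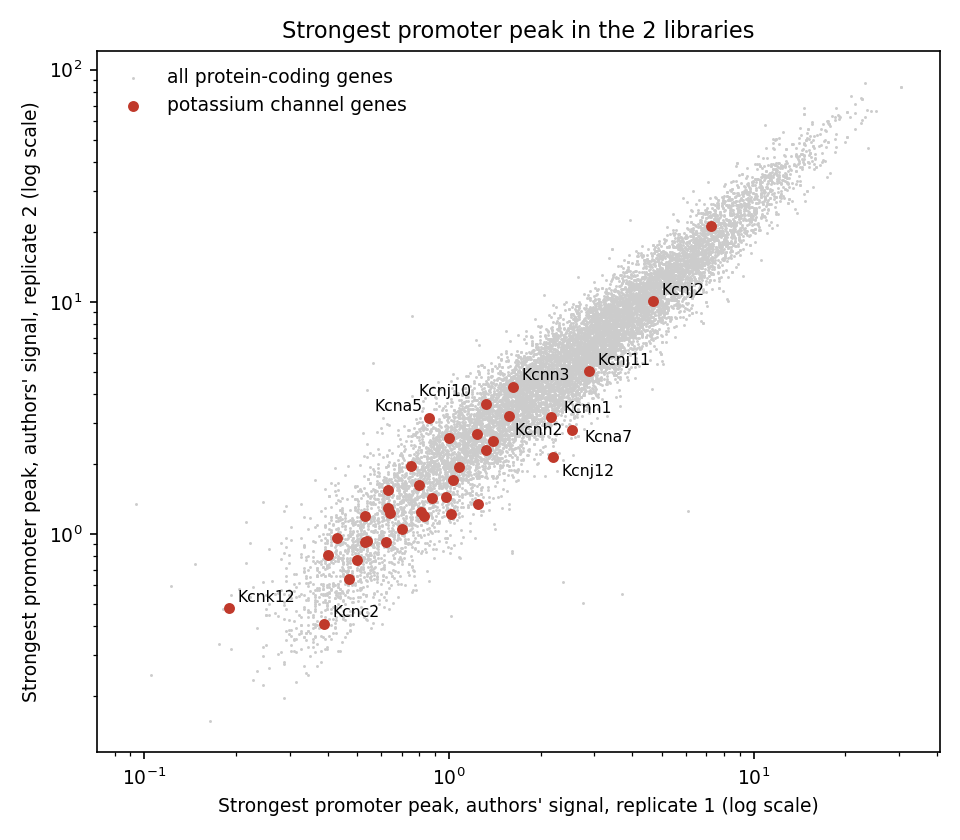
Each point is a gene with a promoter peak in both libraries, placed by the authors' signal of its strongest promoter peak in replicate 1 (x, log scale) and replicate 2 (y, log scale). Red potassium channel genes sit mostly at the lower end of the grey cloud of all protein-coding genes, with Kcnj2 at 4.69 and 10.1 and Kcnj11 at 2.89 and 5.04 towards the upper end.

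The pore-forming genes of voltage-gated channels carry the letters a, b, c, d, h and q. Both libraries gave a promoter peak at 19 of 30 (63.3%, all genes 60.2%). With the shorter lists, or the strongest 50% of each list, it was 12 of 30 (40%), below the 53.6% and 53.4% of all genes. By subfamily these included 4 of 8 Kcna, 1 of 3 Kcnd and 5 of 8 Kcnh genes. The Kcnc genes encode channels that open at strong depolarisation and close fast. Of those, Kcnc1 gave 1.32 and 2.30, Kcnc4 1.02 and 1.22, and Kcnc2 0.39 and 0.41. Kcnc4 encodes a channel that in muscle works with the auxiliary subunit of Kcne3, and it had no such call in the shorter peak lists.

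Kcna7, a Shaker-type channel gene best known from muscle and heart, had a promoter peak of 2.54 in replicate 1 and 2.81 in replicate 2, 717 bp inside the gene. A further shared peak lay at -313 bp from its start, with 1.58 and 2.58. Kcna5, a channel of heart and vessel muscle, gave 0.86 and 3.17, which places it in the middle of the replicate 1 list (42.4%) but near the top of the other (5.47%). Kcna2 gave 0.75 and 1.96 and Kcna3, the channel of T cells, 0.81 and 1.24. Kcna4 had no peak of either library anywhere in its window. Kcna6 had none at its promoter, and the Kcna1 promoter had one in replicate 2 only.

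Kcnh2, the channel of the rapid repolarising current of the heart, gave 1.57 and 3.21, but from promoters apart. Its shared peaks gave 1.57 and 3.03 at one and 1.52 and 3.21 at the other. In all, 7 of the 38 called genes had strongest promoter peaks that did not overlap between the libraries, also Kcnc1, Kcnh3, Kcnh5, Kcnk4, Kcnk12 and Kcnt2. All of these but Kcnh5 and Kcnk12 had promoter peaks that overlapped elsewhere. The same count was not made over all called genes, so it describes these genes only. Kcnh1 gave 1.40 and 2.51, and the other Kcnh genes with peaks in both libraries, Kcnh3, Kcnh5 and Kcnh6, lay between 0.40 and 0.63 in replicate 1. Of the Kcnq genes, which encode slowly opening channels, Kcnq5 gave 0.83 and 1.19 and Kcnq3 0.43 and 0.96. Kcnd2, a neuronal channel of the transient outward current, had no promoter peak, and Kcnd3 had one in replicate 2 only, with 0.66.

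The electrically silent voltage-gated subunits (letters f, g, s and v) act by joining pore-forming partners. With the strongest 50% of each list, 1 of 10 genes was called in both libraries (10%, all genes 53.4%). In the full lists it was 4 of 10 (40%, all genes 60.2%). These were Kcnf1 with 0.53 and 0.92, Kcng2 with 0.64 and 1.23, Kcng4 with 0.98 and 1.44, and Kcns3 with 0.53 and 1.19. The best placed of them, Kcng4, stood at 36.8% of the replicate 1 list. Kcnf1 had no such call in the shorter peak lists.

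Among inward rectifiers (letter j), both libraries gave a promoter peak at 5 of 15 genes (33.3%, all genes 60.2%). Those 5 stood high for this family. Their median place was 20% of the replicate 1 list and 6.52% of the replicate 2 list. Kcnj2, whose channel sets the resting voltage of muscle fibres, had 4.69 in replicate 1 and 10.1 in replicate 2, with the replicate 1 peak centred at -74 bp from its only annotated start. Kcnj11, the pore of the ATP-closed channel, had 2.89 and 5.04, with the replicate 1 peak at -22 bp from a start. Kcnj12, a further strong inward rectifier of muscle, had 2.20 and 2.14. Kcnj10, a glial channel, gave 1.32 and 3.63, and Kcnj8, the ATP-closed pore of vessel muscle and pericytes, 1.24 and 2.70. All 5 lay in the first 28% of the replicate 1 list. At the other end, 7 inward rectifier genes had no promoter peak in either library. They include the pores of the G-protein-gated channels of heart and neurons, Kcnj5, Kcnj6 and Kcnj9, the kidney channel gene Kcnj1, and Kcnj14. Kcnj3, the G-protein-gated partner of Kcnj5, had a peak in replicate 2 only, with 0.26.

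Stretches of promoter peaks with no exon show what well placed channel promoters look like, and the Kcnn1 stretch is at an internal start. Kcnj2 (chr11:111065981-111066163, plus strand), Kcnn3 (chr3:89519941-89520163, plus strand), Kcnn1 (chr8:70857014-70857121, minus strand) and Kcnj12 (chr11:61022401-61022563, plus strand) are printed from the mm10 genome, each as the part of its strongest promoter peak that holds no exon. Capitals mark bases inside footprints of both libraries, short depletions of cuts within open DNA that the authors called.
Kcnj2: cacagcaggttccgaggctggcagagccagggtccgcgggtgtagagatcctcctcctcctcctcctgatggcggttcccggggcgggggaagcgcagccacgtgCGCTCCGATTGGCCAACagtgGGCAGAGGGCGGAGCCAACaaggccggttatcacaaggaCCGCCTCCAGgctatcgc
Kcnn3: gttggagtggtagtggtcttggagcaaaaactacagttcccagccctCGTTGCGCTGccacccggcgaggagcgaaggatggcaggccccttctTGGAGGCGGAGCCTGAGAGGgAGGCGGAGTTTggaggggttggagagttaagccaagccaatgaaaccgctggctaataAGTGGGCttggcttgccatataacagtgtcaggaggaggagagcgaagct
Kcnn1: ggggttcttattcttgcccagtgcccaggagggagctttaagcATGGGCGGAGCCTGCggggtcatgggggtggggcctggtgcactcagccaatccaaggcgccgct
Kcnj12: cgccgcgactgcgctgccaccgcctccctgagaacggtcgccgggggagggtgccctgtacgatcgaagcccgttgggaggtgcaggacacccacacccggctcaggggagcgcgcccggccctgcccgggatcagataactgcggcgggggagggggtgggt
The Kcnj2 stretch had 46 bases in footprints of both libraries, Kcnn3 had 48, Kcnn1 had 15 and Kcnj12 had 0. The Kcnj12 stretch is 73.6% G and C with 18 CpG, and the Kcnj2 stretch 67.2% with 14. One GC box, GGGCGG, of the 2 in Kcnj2 and the one in Kcnn1 lie wholly inside such footprints. Over the family, 37 of the 38 called genes had at least 1 footprint of each library in the promoter (45.7% of all 81 channels, all genes 58.7%). The exception was Kcnk12. The median number was 4 in replicate 1 and 5 in replicate 2, beside 6 and 6 over all called genes.

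Calcium- and sodium-activated channels with the sperm channel (letters n, t and u) were called in both libraries at 4 of 7 genes (57.1%). This is near the 60.2% of all genes. The small-conductance genes Kcnn1, Kcnn2 and Kcnn3, whose channels respond to calcium through calmodulin, all did. Kcnn3, which is known to appear in muscle that has lost its nerve, gave 1.62 and 4.31. Kcnn1 gave 2.16 and 3.19 and Kcnn2 1.00 and 2.59. Kcnn4, the intermediate-conductance channel of blood cells, had no promoter peak. The Kcnn1 peak lies at an internal start, 6227 bp inside the gene from its 5' end, and with the 5' end alone as the start, or with the shorter peak lists, Kcnn1 was not called in both libraries. A stronger shared peak of Kcnn1, with 4.60 and 10.48, lay at -2542 bp from the 5' end, outside the promoter window and away from starts of other coding genes.

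Tandem-pore-domain leak channels (letter k) were called in both libraries at 6 of 14 genes (42.9%, all genes 60.2%). With the shorter lists or the strongest 50% of each list it was 3 (21.4%, all genes 53.6% and 53.4%). The highest in replicate 1 was Kcnk5 with 1.03, and 1.70 in replicate 2. Kcnk6 gave 0.88 and 1.43 and Kcnk3, an acid-sensitive channel, 0.80 and 1.63. Kcnk4, a mechanically gated channel, gave 0.70 and 1.05 from different peaks, and Kcnk13 0.62 and 0.92. Kcnk7 had the strongest promoter peak that was in replicate 2 only among these, with 1.22.

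The auxiliary Kcne genes encode small single-span proteins that change the gating of voltage-gated channels. They were the one role group with no promoter peak in both libraries, at 0 of 5 genes (all genes 60.2%). All 5 have promoters poor in CpG (ratio below 0.48, a class described below), where the share over all genes was 24.9%. With 5 genes of that class, 0 is not shown to be a trait of the role. Kcne3, known as a partner in muscle, had a replicate 2 peak of 1.86, the strongest of the 21 promoters with a peak in that library alone. After it came Kcnk7 with 1.22, Kcna10 with 0.95 and Kcns2 with 0.80. Kcne4 gave 0.47 there, and Kcne1, Kcne1l and Kcne2 had none. The median place of the 21 in the replicate 2 list was 36.1%, beside 36.5% over all genes with a peak in that library only. Of the 41 channels without a replicate 1 promoter peak, 3 had a segment there with a false discovery rate of at most 0.05 in that library (of all genes without such a peak, 3.5% had one).

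Sorted by where the channels are known to work, the muscle fibre list was called in both libraries at 8 of its 10 genes, among them Kcnj2, Kcnj12, Kcnj11, Kcna7, Kcnc4, Kcnq5 and Kcnn3. The exceptions were Kcne3 and Kcnj14, and the median was 4.5 shared peaks a window. The neuron list had 7 of 16, the heart list 3 of 8, the vessel wall list 4 of 4, the glia list 1 of 2 and the immune cell list 3 of 4. The list of channels of kidney, stomach, ear or sperm had 0 of 6. These counts are small, stand beside 60.2% of all genes, and come from lists chosen with earlier results of these data known, so they describe the lists and no more. The muscle and vessel wall lists overlap, Kcna5 and Kcnk3 are in both the heart and the vessel wall list, and Kcnj3 is in both the neuron and the heart list. With the strongest 50% of each peak list the neuron count was 4, and with the shorter lists the immune cell count was 1.

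Channel promoters had a peak in both libraries less often than those of all genes where CpG was plentiful, and in the full lists more often where it was scarce. The classes rest on the ratio of observed to expected CpG over 500 bp on each side of the 5' end, with high from 0.75 and low below 0.48. Among CpG-rich promoters, both libraries gave a peak at 11 of 18 channels (61.1%), beside 94.8% of all genes in the class. In the middle class it was 14 of 26 (53.8%, all genes 83.6%). Among CpG-poor promoters it was 13 of 37 (35.1%, all genes 24.9%). The direction in this class turns with the strongest 50% of each list, which gives 6 of 37 (16.2%, all genes 18.9%). In the other classes the channels stay lower under that setting or the shorter lists, at 9 of 26 (34.6%, all genes 73.9%) for middle with the former and 7 of 18 (38.9%, all genes 90.3%) for high with the latter. The replicate 2 library alone gave the same order, with 83.3%, 76.9% and 64.9% of the channels against 97.8%, 92.5% and 41.8% of all genes. CpG-poor channel genes with peaks in both libraries included Kcnj2, Kcna7, Kcna5 and Kcnn3.

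**Figure D3:**
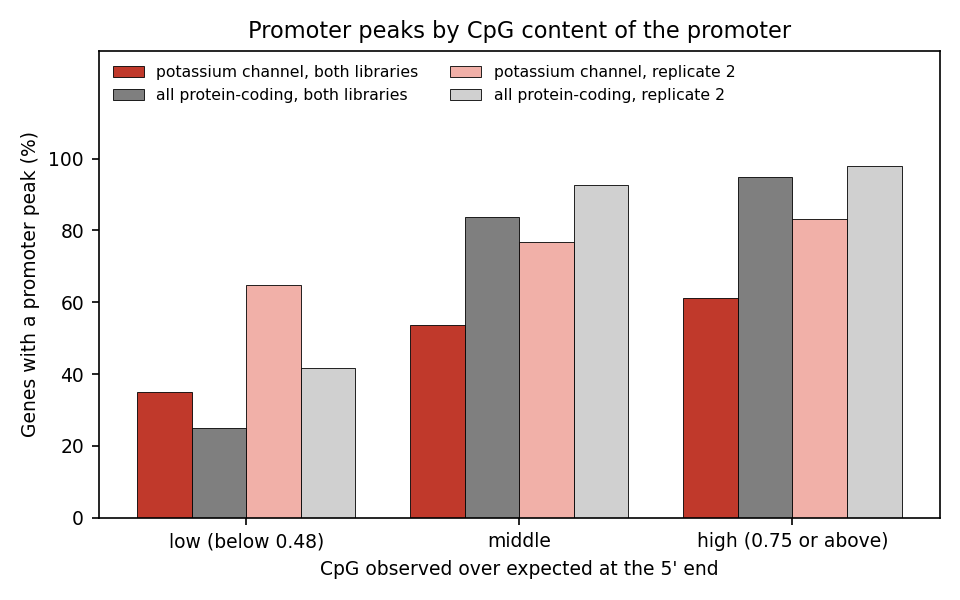
Bars give the percentage of genes with a promoter peak, for potassium channel genes (red) and all protein-coding genes (grey), in 3 classes of CpG ratio at the 5' end, for both libraries (dark) and for replicate 2 (pale). Channels are lower than all genes at high and middle ratios, 61.1% against 94.8% and 53.8% against 83.6%, and higher at low ratios, 35.1% against 24.9%, which turns to 16.2% against 18.9% with the strongest 50% of each list.

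The channels with a CpG-rich promoter and no promoter peak in either library were Kcnd2, Kcng3 and Kcnk9, with ratios of 0.80, 0.96 and 0.91. Kcng3 had 41 bp of a replicate 2 segment in its promoter, and the other two had none. To set beside the promoters above, the 150 bp before the 5' ends of Kcnd2 (chr6:21215353-21215502, plus strand) and Kcng3 (chr17:83631896-83632045, minus strand) are given in lower case throughout, since no peak covers them.
Kcnd2: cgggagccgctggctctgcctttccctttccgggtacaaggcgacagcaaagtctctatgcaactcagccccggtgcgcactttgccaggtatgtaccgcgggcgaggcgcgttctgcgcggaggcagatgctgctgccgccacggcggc
Kcng3: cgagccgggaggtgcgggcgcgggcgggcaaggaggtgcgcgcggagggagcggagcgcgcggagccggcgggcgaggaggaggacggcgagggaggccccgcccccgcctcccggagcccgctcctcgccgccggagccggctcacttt
The Kcnd2 stretch is 66.7% G and C with 16 CpG and the Kcng3 stretch 82% with 26. The Kcng3 stretch is thus above those of Kcnj2 and Kcnj12 in both measures, and the Kcnd2 stretch lies near that of Kcnj2 in G and C. The CpG counts come from unlike lengths, 150 bp here, 183 bp for Kcnj2 and 163 bp for Kcnj12. Neither Kcnd2 nor Kcng3 had a shared peak in its window either.

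The number of annotated starts also differed in its relation to the call. Channels with 1 start were called at 9 of 17 (52.9%, all genes 30.1%), those with 2 or 3 at 17 of 38 (44.7%, all genes 47.7%) and those with 4 or more at 12 of 26 (46.2%, all genes 83.2%). No called channel had the start of another coding gene within 1 kb of its strongest promoter peaks, while 2674 of all called genes did (20.3%). The part of this in the lower share of open channel promoters was not tested.

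Beyond the promoter, each gene was given a window of its body plus 10 kb either side, in which peaks were counted by midpoint. Channel windows held a median of 1 shared peak, with a range of 0 to 14, beside a median of 2 over all genes. Per 10 kb of window the medians were 0.23 and 0.32. The windows of the channels were longer, at a median of 46.7 kb against 37.4 kb. Replicate 1 gave a median of 2 peaks a window for channels and 2 for all genes, and replicate 2 gave 9 and 5. No shared peak was found in 27 windows (33.3%, all genes 28.5%). No peak of either library was found in 4 windows, those of Kcna4, Kcnj5, Kcnj16 and Kcnk1 (4.94%, all genes 10.4%). There were 10 or more shared peaks in the windows of Kcnq1 with 14 and Kcnq5 with 11 (2.47%, all genes 3.64%). With the strongest 50% of each list these held 8 and 4. Kcnk4 had 9, and Kcnc1 and Kcnn1 had 8 each. For length, dense windows were those of Kcnk4 with 2.95 shared peaks per 10 kb, Kcna7 with 2.07, Kcnn1 with 1.94, Kcnj11 with 1.86 and Kcnf1 with 1.61.

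**Figure D4:**
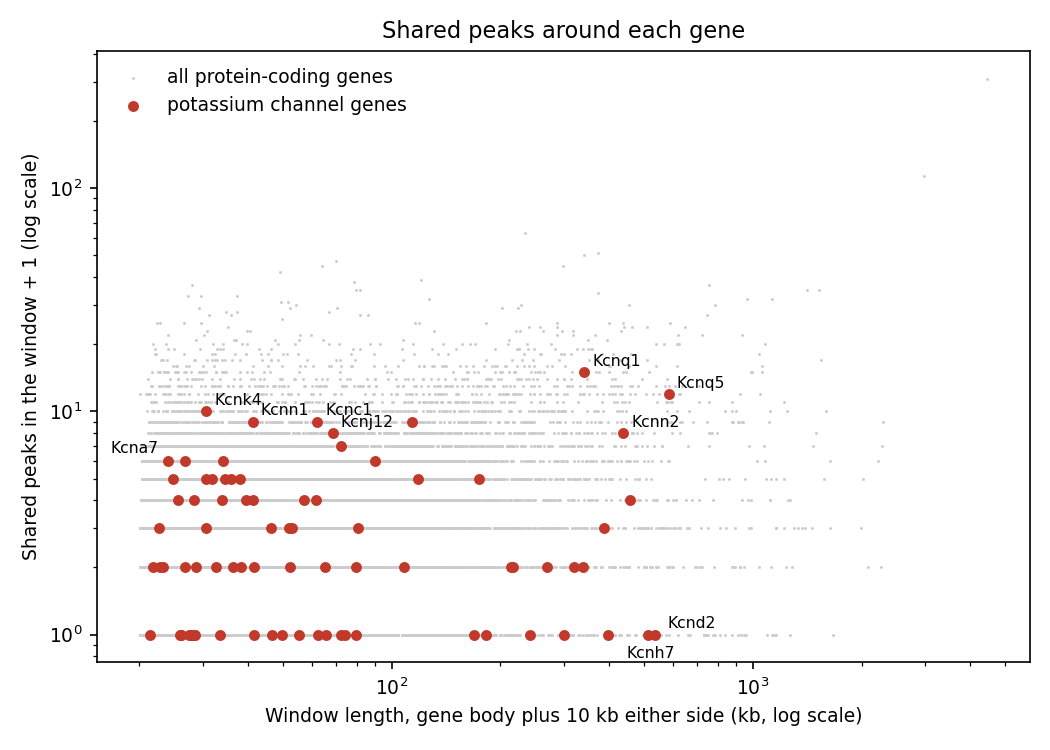
Each point is a gene, placed by the length of its window (x, kb, log scale) and the number of shared peaks in it plus 1 (y, log scale). Potassium channel genes in red lie inside the grey cloud of all protein-coding genes, with Kcnq1 at 14 shared peaks and Kcnk4 at 9 in a short window.

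Some of these counts belong to neighbours. The 186 shared peaks in the channel windows each fell in the window of 1 channel only. Of them 65 lay at a promoter of the channel (34.9%, all genes' windows 39.1%), 10 in exons (5.38%, 4.1%), 54 in introns (29%, 25.2%) and 57 in the flanks (30.6%, 31.6%). A coding start of another gene lay within 1 kb of 28 (15.1%, 25.3%). At Kcnk4, 3 of the 9 sit by Esrra, a nuclear receptor gene of energy metabolism 2.15 kb away, with the strongest of the 3 at 7.67 and 16.06. A further 2 sit by Bad and Gpr137, the stronger at 5.43 and 17.46, and 2 by Catsperz. At Kcnn1 the strongest, with 10.91 and 27.84, sits by Arrdc2, and the shared peaks farthest past the end of Kcnn1 lie beyond the whole of Arrdc2. At Kcna7 it sits by Snrnp70, a splicing gene, with 12.97 and 26.67. The Kcna7 window holds 4 more shared peaks with no such neighbour. At Kcnq1, which encodes the slow repolarising channel of the heart, no promoter peak was found in either library, and the strongest of the 14 shared peaks, 190268 bp inside the gene, is at the start of the imprinted antisense RNA gene Kcnq1ot1, with 4.14 and 10.51. Myod1, the muscle transcription factor gene, lies 17.4 kb from Kcnc1, and its own window held 6 shared peaks. At Kcnc1, 6 of the 8 shared peaks lie in introns, the strongest with 3.22 and 5.38, and none of the 8 is near another coding start.

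**Figure D5:**
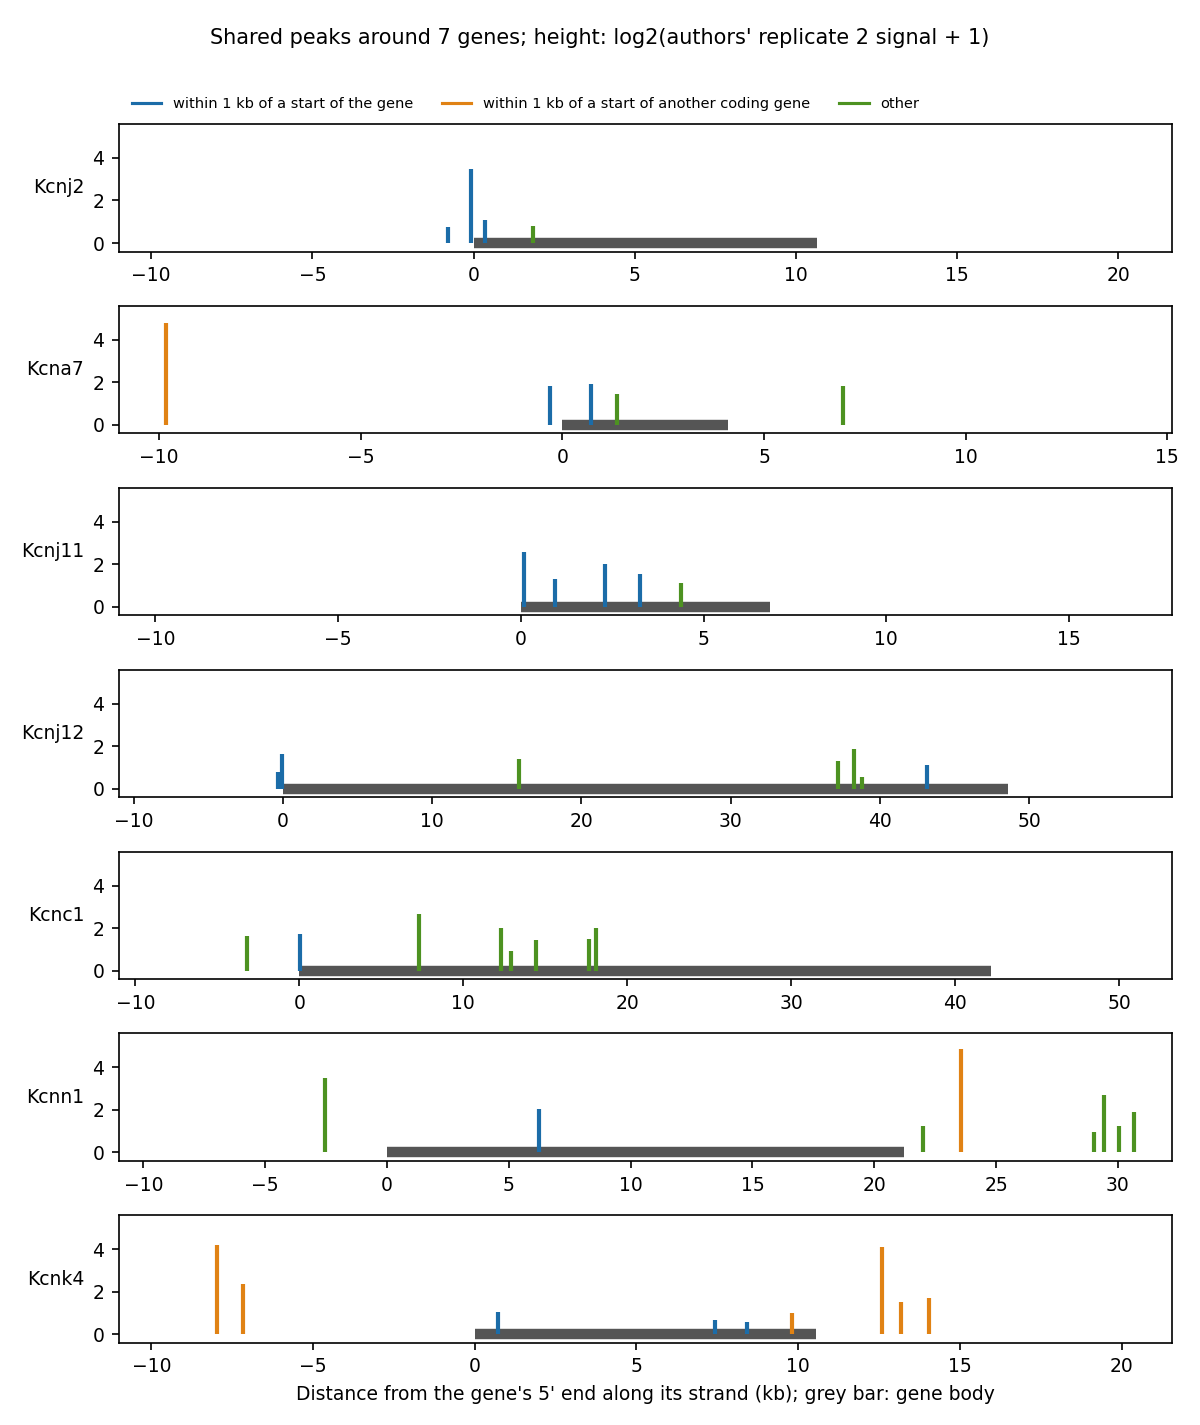
Each row draws a gene body as a grey bar and its shared peaks as lines, placed by distance from the gene's 5' end (x, kb, along the strand) with height log2(authors' replicate 2 signal + 1). Blue lines are within 1 kb of a start of the gene, orange lines within 1 kb of a start of another coding gene and green lines elsewhere, so that the tallest lines at Kcna7, Kcnn1 and Kcnk4 are orange.

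Promoters without a call were not always in closed surroundings. Of the 43 channels not called, 18 had a shared peak in the window. The same share was not counted over all genes without a call, so it is not shown to be particular to channels. Kcnv2 had 4, none of them near another coding start. Kcne2 and Kcnj14 had 3 each, of which 2 at Kcne2 sit by Smim11 and all 3 at Kcnj14 by Cyth2 or Grwd1. The single shared peaks of Kcnj9 and Kcnu1 also sit by other coding starts, as do 2 of 3 at Kcnh4 and 1 of 2 at Kcnk7. Kcnj16 shows the reverse. It lies 38.2 kb from Kcnj2, had no peak of either library in its window, and Kcnj2 had 4 shared peaks in its own. Kcnj11 and its partner gene Abcc8, 3.76 kb apart, were both called.

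Some channel windows held many more peaks of 1 library than of the other, mostly of low signal. Replicate 1 had 21 peaks in the Kcnj15 window with a median signal of 0.13, where replicate 2 had 2. It had 21 with the same median in the Kcnk12 window, where replicate 2 had 10. Neither window held a shared peak. Replicate 2 had 66 peaks in the Kcnk5 window, 55 in that of Kcnj4 and 54 in that of Kcnk3, with medians between 0.17 and 0.20. Replicate 1 had between 1 and 4 there. These medians are over all peaks of the library in the window. Windows with few replicate 2 peaks could hold stronger ones, as at Kcne3, with 3 peaks of median 0.89 and none in replicate 1. In the Kcnk15 window replicate 2 had 37 and replicate 1 had 0. Summed over the 81 windows there were 329 peaks in replicate 1 and 1263 in replicate 2.

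Short motifs were sought in 150 bp windows centred on shared peaks, on both strands, beside all shared peaks of the same class. Among 94 distal channel peaks, those outside promoters of the channel and away from other coding starts, the E-box CAGCTG bound by muscle regulators such as MyoD was in 30 (31.9%, all distal shared peaks 24.2%), the GC box in 10 (10.6%, 10%), MEF2 in 2 (2.13%, 0.92%), MEF3, TCAGGTT, in 2 (2.13%, 2.61%) and the NRF1 motif in 1 (1.06%, 0.0992%). Among 65 promoter peaks the GC box was in 30 (46.2%, all promoter peaks 45.8%) and the E-box in 8 (12.3%, 11.4%). MEF2, MEF3 and NRF1 were in 1 each (1.54%), beside 0.367%, 1.32% and 1.01% of all promoter peaks. The ETS motif CCGGAAGT was in 0 of 65 promoter peaks (all promoter peaks 3.82%) and 0 of 94 distal peaks (all distal shared peaks 0.397%). The core of the REST-bound RE1 element was in 0 of both classes (0.0803% and 0.0376%). The MEF2 and E-box matches met in the same window at the distal peaks of Kcna7 and Kcnc1 and at a promoter peak of Kcnn2. The distal windows are shown with the strongest distal Kcnn1 peak that held an E-box, and capitals mark the letters of the E-box and MEF2 motifs.
Kcna7, chr7:45412538-45412687, plus strand: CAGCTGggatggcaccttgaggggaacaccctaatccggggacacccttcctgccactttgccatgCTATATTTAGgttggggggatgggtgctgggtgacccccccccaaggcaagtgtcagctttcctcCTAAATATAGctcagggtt
Kcnc1, chr7:46408725-46408874, plus strand: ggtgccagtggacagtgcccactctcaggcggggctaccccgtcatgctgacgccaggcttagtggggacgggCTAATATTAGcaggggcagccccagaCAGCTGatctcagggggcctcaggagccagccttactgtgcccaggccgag
Kcnn1, chr8:70833755-70833904, minus strand: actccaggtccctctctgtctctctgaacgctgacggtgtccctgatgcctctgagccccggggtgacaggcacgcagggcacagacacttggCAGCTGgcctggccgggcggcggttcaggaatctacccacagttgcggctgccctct
The Kcna7 stretch lies 6960 bp from the start, past the end of the gene, with a signal of 1.65 in replicate 1 and 2.58 in replicate 2. The Kcnc1 stretch is in an intron, with 2.22 and 3.0. The Kcnn1 stretch, with 5.00 and 5.59, lies past the end of the gene. The whole of the neighbouring gene Arrdc2 stands between it and Kcnn1, so it may not belong to Kcnn1. A match of letters is a description and not a binding site.

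Genes of potassium channel partners outside the naming rule give a frame. Of 22 such genes, 13 were called in both libraries (59.1%, all genes 60.2%). Kcnab2, a cytoplasmic subunit of Shaker-type channels, gave a promoter peak above those of all 81 channels, at 10.5 in replicate 1 and 33.6 in replicate 2, the top 0.567% and 0.1% of the lists. Abcc8 and Abcc9, which encode the sulfonylurea receptors that join the pores of Kcnj11 and Kcnj8, gave 2.9 and 4.74 and 1.43 and 2.45. Kcnma1, the large-conductance calcium-activated channel, had 26 shared peaks in its window, more than any of the 81. Its window is long, and per 10 kb it held 0.35, beside a median of 0.32 over all genes. Among other ion channel families, promoter peaks in both libraries were found at 3 of 10 sodium channel (Scn) genes (30%), 6 of 10 calcium channel (Cacna1) genes (60%) and 8 of 9 chloride channel (Clcn) genes (88.9%), beside 60.2% of all genes.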

How the data were processed

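Per the labels, positions are on mm10. Per the deposited README of each library, peaks were called on that library alone. The sources used here give no aligner, caller, version or depth. The deposited peak lists hold the authors' signal, never negative and of unstated scale, used only to describe and rank peaks within a list. The deposited segments and footprints hold a p-value column, read as a false discovery rate of at most 0.05 for segments and equal to 0.01 in every footprint row. The longer peak list of each library was used, with GENCODE release M21 for starts and genes. Overlaps were checked with bedtools 2.31.1 and the counting functions tested on simulated data. Python 3.11.15, pandas 2.3.3 and pysam 0.24.0 were used. Alternatives changed the promoter width, starts, peak list, peak number, overlap, window and library. The named genes were those with the best ranked promoter peaks, the most shared peaks in all or per 10 kb, the strongest replicate 2-only promoter peaks, no peak at all, or a place in the lists. The members and lists were chosen with earlier results of these data known. Some named genes are counted in the totals but not reported here.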

Additional observations from a re-analysis of the deposited data

How the results depend on the processing

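The count of 38 channels with a promoter peak in both libraries ranged from 26 to 39 under the other choices of promoter width, starts, peak list, equal peak numbers and overlap, and was 24 with the strongest 50% of each list (29.6%, all genes 53.4%). With 1 library left out it ranged from 40 to 59. A set of 21 channels was called under all 9 settings that use both libraries, and 42 under none. These counts were not made over all genes, so they do not show whether channel calls are more or less stable. The median of 1 shared peak a window was 0 for the gene body alone and 4 with 50 kb either side (all genes 4), and ranged from 2 to 9 with 1 library left out. The 27 windows without a shared peak became 51 for the gene body alone (63%, all genes 48%). With 50 kb either side they became 16 (19.8%, all genes 17.7%). Windows without a peak of replicate 2 numbered 4 (4.94%, all genes 10.8%), and those without a peak of replicate 1 numbered 21 (25.9%, all genes 26.4%). The channels thus stood above all genes in windows without shared peaks, but not in windows without peaks of 1 library. No paired analysis was possible because there is 1 group. For 34 chosen genes, promoter calls were unchanged in 261 of 272 gene and setting pairs, and the exceptions were at Kcnn1, Kcnk4, Kcnc4, Kcnf1 and Kcnk12. Among the other genes, 12 called channels lost the call under at least 1 setting, and Kcnh4 gained one at 2 kb. Window counts of single genes moved more often: with the gene body alone Kcnn1 had 1 and Kcnk4 4, and with the shorter lists Kcnq1 had 8, Kcnq5 6 and Kcnf1 1. The peak number differs 3.86 times between libraries and depth is unknown, so absence of a peak is not shown to be absence of open chromatin.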
